A study of Mus musculus with 6 samples.

Results

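The genes of the caveola and raft coat proteins were examined in mouse embryonic fibroblasts (MEFs): the cavins Cavin1, Cavin3 and Cavin4, the EHD genes Ehd1, Ehd2 and Ehd4, the pacsins Pacsin2 and Pacsin3, and the flotillins Flot1 and Flot2. They were taken by name from the gene identifiers of the deposited table, which gave 10 of 56953 listed genes. Bulk poly-A RNA was sequenced from 3 libraries of wild-type (WT) MEFs and 3 libraries of MEFs labelled as lacking Gαq (GalfaqKO in the labels, GαqKO here), both grown untreated in medium with fetal bovine serum. The knockout line comes from mice without both Gαq and Gα11, the alpha subunits that couple receptors to phospholipase C, and each genotype is represented by 1 MEF line, so genotype and line cannot be told apart.

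The values are normalized counts, that is read counts per gene divided by 1 factor per library. Each library sums to between 11392429 and 11483486 normalized counts, and the reads recovered from the table in 5 of the libraries were between 9853000 and 12229175. Gna11 was at 2148 ± 29.0 normalized counts in WT and 451.6 ± 28.7 in the libraries labelled GαqKO (SD, n = 3 each), whereas Gnaq was at 1691 ± 48.5 and 1926 ± 36.0, which is not lower (log2 fold change 0.19, adjusted p = 0.00212 from limma). Gnaq RNA was thus not lower in the cells labelled for its loss, while Gna11, which the label does not name, was lower. The study reports a lack of Gαq protein by Western blot and by immunofluorescence. The cells are called by their label throughout. Of 10 fibroblast markers, 8 were over 10 normalized counts in every WT library and 9 in every library labelled GαqKO. Their summed level ran from 84376 to 90132 in WT and from 61318 to 64522 in GαqKO. Vim alone was at 41785 ± 2519 in WT and 33508 ± 729 in GαqKO. Within that list Pdgfra was at 19.6 ± 2.23 in WT and 2320 ± 42 in GαqKO. Thy1 was at 0.7 ± 1.21 in WT and 64.9 ± 10.1 in GαqKO, and Fap was near 0 in all libraries.

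Caveolae are flask-shaped pits of the plasma membrane that are abundant in fibroblasts, adipocytes, endothelium and muscle. Caveolins insert into the membrane, and cavins join them from the cytosol to form the coat. EHD proteins are ATPases that bend membranes, and EHD2 sits at the caveolar neck, while pacsins bind and curve membranes through F-BAR domains. Flotillins form a separate scaffold in cholesterol-rich membrane and do not need caveolins.

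Of the 10 genes, all of which passed the filter on low values, 4 were higher in GαqKO (Cavin3, Cavin4, Ehd2 and Pacsin2) and 5 lower (Cavin1, Ehd1, Ehd4, Pacsin3 and Flot1) at an adjusted p under 0.05 (limma on log2(normalized count + 1)). Flot2 was not called. Among all 14096 genes tested, 31.8% were called higher and 34.1% lower, and the 40% and 50% of the 10 genes stand beside that background. Only Cavin3 was past a log2 fold change of 1, where 10.2% of all genes tested were called higher, and none was past -1, where 10.5% were called lower. The median log2 fold change was -0.07 over the 10 genes and -0.01 over all genes tested, and the median size of the change 0.51 and 0.39. A difference between these libraries may come from fewer cells of a type or from less RNA per cell, which bulk RNA cannot tell apart, and p-values measure only the spread between the libraries. Fold changes are on the log2(normalized count + 1) scale, which understates the change of low genes. Non-overlap of the groups is given below for single genes as a description. Its share over all genes tested was not computed.

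**Figure D1:**
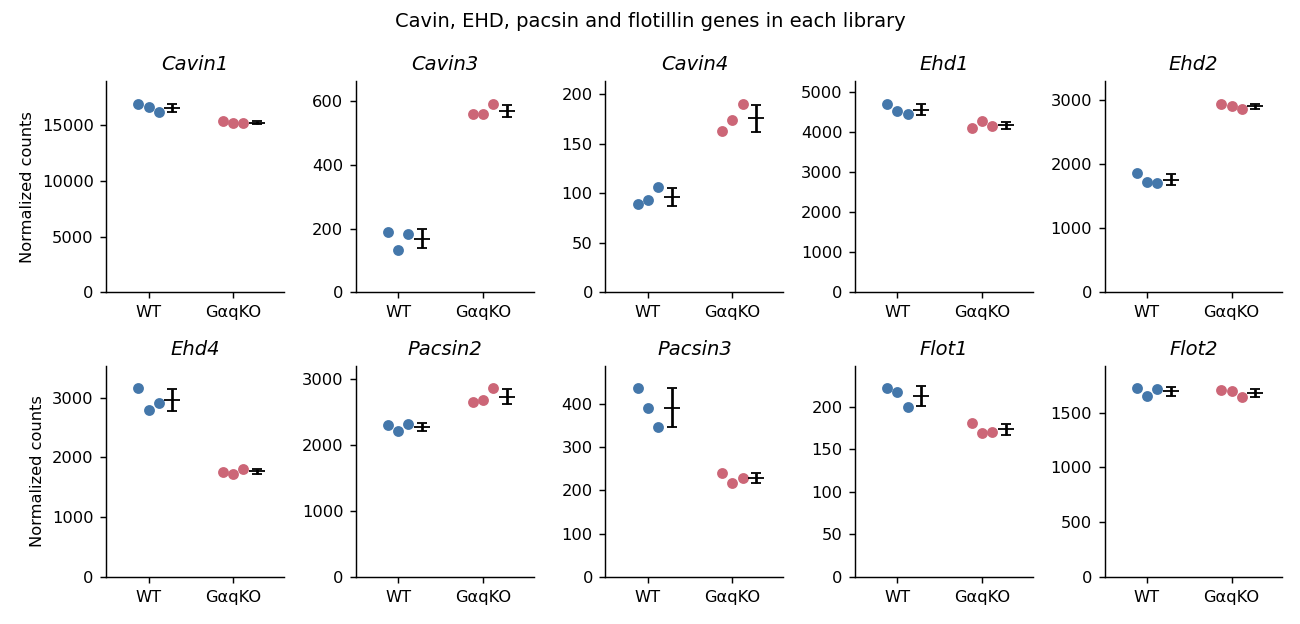
Normalized counts (y axis, from 0) of each gene in the 3 WT and 3 GαqKO libraries (points) with the mean and SD (bar). Cavin3, with 134.1 to 188.0 in WT and 559.6 to 592.1 in GαqKO, has the largest fold difference, 3.39. The groups overlap for Flot2. The share of all genes tested whose groups do not overlap was not computed.

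**Figure D2:**
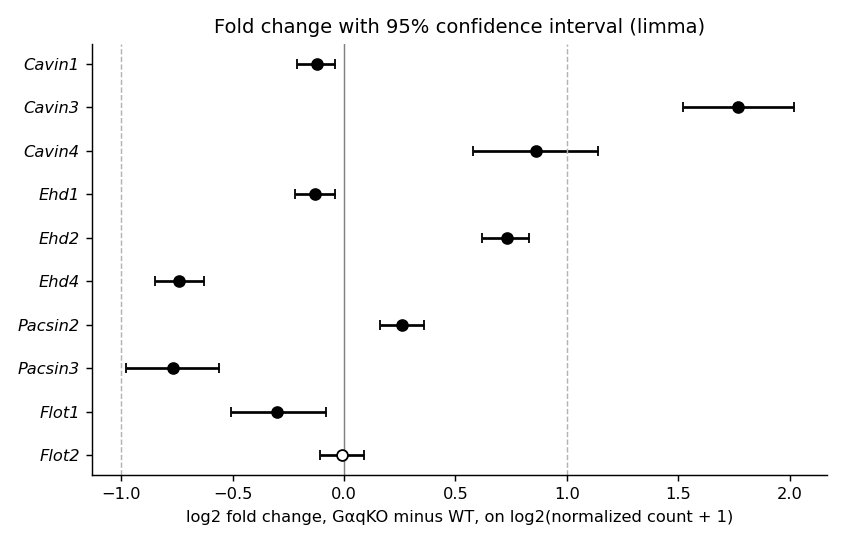
log2 fold change of GαqKO minus WT (x axis) with its 95% confidence interval from limma, with filled points for an adjusted p under 0.05 and dashed lines at -1 and 1. Cavin3 at 1.77 is the only gene past a dashed line, and Flot2 at -0.01 is the open point.

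The genomic stretch before the canonical transcript of 4 of these genes is shown as examples of both directions. Cavin3 and Ehd2 are among the higher genes and Ehd4 and Pacsin3, which had the largest falls, among the lower. The stretch shown for Pacsin3 lies inside the gene's span, which starts at 91086095. Each run holds the 250 bases before the start of the canonical GENCODE transcript, 5′ to 3′ on the gene's strand, from the GRCm39 genome, with GC boxes (GGGCGG or its reverse complement CCGCCC) in capitals.
Cavin3: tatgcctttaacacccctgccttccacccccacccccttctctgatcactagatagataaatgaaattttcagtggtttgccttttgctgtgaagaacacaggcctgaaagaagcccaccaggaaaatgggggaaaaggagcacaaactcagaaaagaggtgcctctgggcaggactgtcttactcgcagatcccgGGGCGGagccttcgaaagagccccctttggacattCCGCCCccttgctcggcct
Ehd2: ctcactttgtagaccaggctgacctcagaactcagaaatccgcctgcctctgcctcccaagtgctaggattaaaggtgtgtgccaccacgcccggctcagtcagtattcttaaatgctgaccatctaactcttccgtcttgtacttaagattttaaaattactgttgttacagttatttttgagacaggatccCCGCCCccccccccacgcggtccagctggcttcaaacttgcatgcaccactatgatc
Ehd4: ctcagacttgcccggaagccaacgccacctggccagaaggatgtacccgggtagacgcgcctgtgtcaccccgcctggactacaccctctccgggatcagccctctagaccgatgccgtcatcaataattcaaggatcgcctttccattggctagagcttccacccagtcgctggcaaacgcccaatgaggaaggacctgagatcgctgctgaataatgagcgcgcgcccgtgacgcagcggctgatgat
Pacsin3: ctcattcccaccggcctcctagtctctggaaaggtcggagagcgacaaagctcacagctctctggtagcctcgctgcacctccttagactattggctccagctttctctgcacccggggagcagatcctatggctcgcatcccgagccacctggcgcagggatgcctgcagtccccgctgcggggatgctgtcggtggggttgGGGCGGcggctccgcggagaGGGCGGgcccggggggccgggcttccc
These lie on chromosome 7 from 105131508 to 105131757 (Cavin3, minus strand), chromosome 7 from 15701630 to 15701879 (Ehd2, minus strand), chromosome 2 from 119985093 to 119985342 (Ehd4, minus strand) and chromosome 2 from 91086908 to 91087157 (Pacsin3, plus strand). GC boxes were found in 7 of the 10 genes' stretches, against 36.4% of the stretches of 21648 protein-coding genes, and Ehd4 held none. CCAAT (both strands) was found in 5 of 10 against 36.5%. TATAAA was found in 1 of 10 against 11.9%, CACGTG in 1 of 10 against 6.3% and GGAATG in 2 of 10 against 12.1%. A match in these letters is a description of the sequence and not a binding site. Higher and lower genes are both among those with a GC box, as Cavin3, Ehd2 and Pacsin3 show.

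Cavin1 (ENSMUSG00000004044.10, GRCm39 chromosome 11, 100847559 to 100861713, minus strand) encodes the cavin without which caveolae do not form, and had the largest counts of the 10. Its normalized counts were 16960, 16630 and 16235 in WT and 15386, 15190 and 15182 in GαqKO. The groups did not overlap, and the mean fell by 8.16% (16608 ± 363 to 15252 ± 116, SD, n = 3 each). The log2 fold change was -0.12 (SE 0.039, adjusted p = 0.013 from limma), a small shift whose call was lost with edgeR (adjusted p = 0.108) and with no trend in the prior spread (0.0639).

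Cavin3 (ENSMUSG00000037060.4, chromosome 7, 105128391 to 105131507, minus strand) encodes the cavin that binds protein kinase C delta and regulates caveola trafficking. Its normalized counts were 188.0, 134.1 and 182.2 in WT and 559.7, 559.6 and 592.1 in GαqKO. It was 3.39-fold higher in GαqKO, with the lowest GαqKO library far above the highest WT library (log2 fold change 1.77, SE 0.116, adjusted p = 1.12e-08 from limma). Cavin4 (ENSMUSG00000028348.8, chromosome 4, 48663503 to 48674045, plus strand), the muscle cavin, had 88.8, 93.3 and 105.9 in WT and 162.5, 173.4 and 190.3 in GαqKO. It was 1.83-fold higher (log2 fold change 0.86, SE 0.13, adjusted p = 4.84e-05 from limma), again with no overlap. Cavin4 rose while the summed level of 8 striated muscle markers went the other way, from 743.1 to 808.2 in WT to 18.5 to 27.2 in GαqKO, almost all of it Tnnt2 in WT, with Myog and Cav3 at 0 in every library, Myod1 and Ckm at or near 0, and 1 gene of the list over 10 in every GαqKO library (Des). Of the 8 markers, 6 were at 3 normalized counts or fewer in every library. All exon bases of Des lie inside spans of other listed genes. Any link of these markers to the Cavin4 result was not tested.

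Per kilobase of exon, Cavin1 made up 97.1% ± 0.35 of the counts of the 3 cavins in WT and 91.9% ± 0.372 in GαqKO (SD, n = 3). Cavin3 went from 1.71% ± 0.296 to 5.96% ± 0.199 and Cavin4 from 1.15% ± 0.129 to 2.16% ± 0.177. The rise in Cavin3 thus left Cavin1 by far the most abundant of these 3. Cavin2, listed at 0 and taken up below, does not enter these shares. The ratio of Cavin3 to Cavin1 was 0.0111, 0.00806 and 0.0112 in the WT libraries and 0.0364, 0.0368 and 0.039 in the GαqKO libraries, a difference of 1.9 on the log2 scale. A ratio of genes within a library does not depend on the library's scaling.

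EHD genes moved apart. Ehd1 (ENSMUSG00000024772.10, chromosome 19, 6326675 to 6352060, plus strand), whose protein acts in endosome recycling, had normalized counts of 4718, 4529 and 4454 in WT and 4110, 4282 and 4148 in GαqKO. The mean fell by 8.47% (log2 fold change -0.13, SE 0.041, adjusted p = 0.0144 from limma), and the call was lost with edgeR (0.125) and DESeq2 (0.0715) on 5 libraries, with no trend (0.0727), and without WT replicate 1 (0.0561) or GαqKO replicate 1 (0.0574). Ehd2 (ENSMUSG00000074364.7, chromosome 7, 15680874 to 15701629, minus strand), the EHD of the caveolar neck, had 1862, 1716 and 1700 in WT and 2946, 2911 and 2863 in GαqKO. It was 1.65-fold higher (log2 fold change 0.73, SE 0.047, adjusted p = 1.04e-08 from limma). Ehd4 (ENSMUSG00000027293.14, chromosome 2, 119919654 to 119985092, minus strand), an EHD of endosomes, had 3156, 2799 and 2917 in WT and 1763, 1726 and 1814 in GαqKO. It fell by 40.2% (log2 fold change -0.74, SE 0.05, adjusted p = 1.73e-08 from limma). Neither Ehd2 nor Ehd4 overlapped between groups (share over all genes tested not computed).

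The fourth family member Ehd3 was low in GαqKO, with normalized counts of 163.9, 199.1 and 185.2 in WT and 5.6, 4.6 and 8.1 in GαqKO (log2 fold change -4.72, SE 0.245, adjusted p = 1.04e-09 from limma). It was named after its values were seen, to complete the family. By counts per kilobase of exon, the share of Ehd2 in the EHD family rose from 15.9% ± 0.183 to 29.3% ± 0.475, that of Ehd4 went from 38.4% ± 0.92 to 25.6% ± 0.712 and that of Ehd3 from 1.56% to 0.0578%, while Ehd1 stayed at 44.2% ± 0.75 and 45.1% ± 0.753. The family sum per kilobase was 1744 ± 72.7 in WT and 1565 ± 7.59 in GαqKO. Ehd4 to Ehd2 was 1.69, 1.63 and 1.72 in WT and 0.599, 0.593 and 0.633 in GαqKO, so the order of these paralogs turned over, and Ehd1 to Ehd2 was 2.53, 2.64 and 2.62 against 1.4, 1.47 and 1.45.

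**Figure D3:**
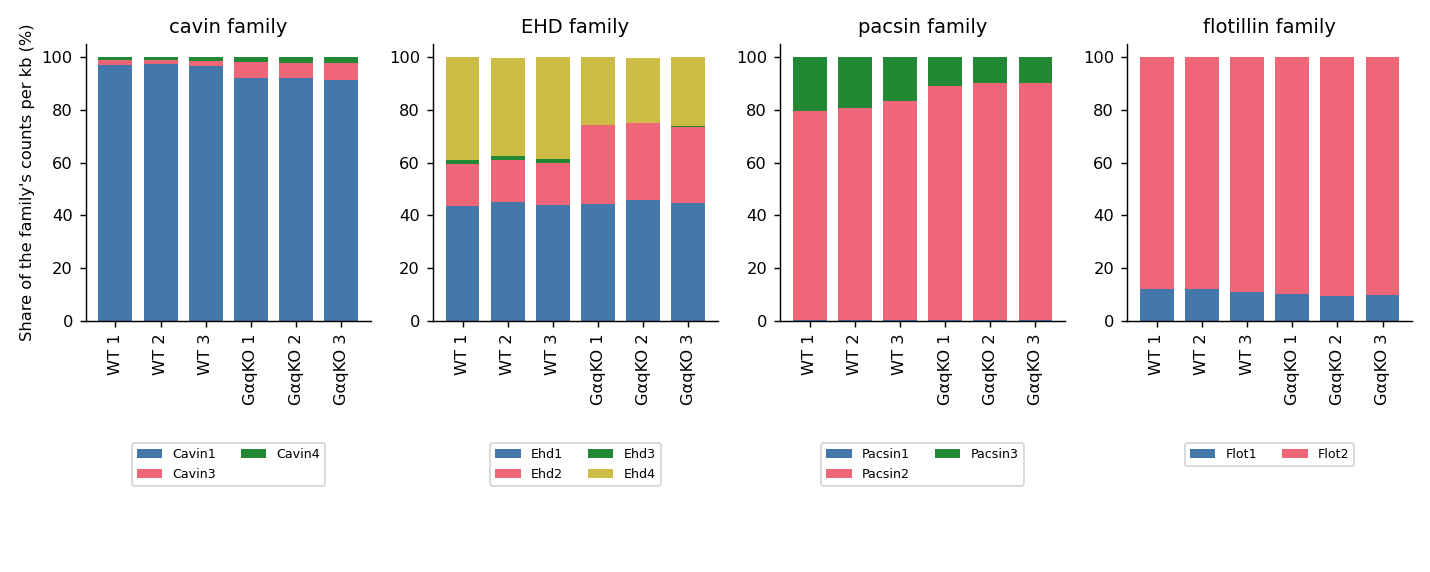
Share of each gene in its family's counts per kilobase of exon (y axis, percent) in the 6 libraries (x axis), stacked by gene. The share of Ehd2 rises from 15.9% to 29.3% and that of Cavin3 from 1.71% to 5.96%, whereas the flotillin shares move little; Cavin2, listed at 0, is not shown.

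The pacsins moved in opposite directions. Pacsin2 (ENSMUSG00000016664.17, chromosome 15, 83258424 to 83348819, minus strand), the pacsin that shapes caveolae, had normalized counts of 2302, 2214 and 2317 in WT and 2656, 2682 and 2863 in GαqKO. It was 1.2-fold higher with no overlap (log2 fold change 0.26, SE 0.045, adjusted p = 0.000169 from limma). Pacsin3 (ENSMUSG00000027257.14, chromosome 2, 91086095 to 91095033, plus strand), a pacsin found mostly in muscle, had 435.4, 390.5 and 345.1 in WT and 239.5, 216.2 and 227.6 in GαqKO. Its mean fell by 41.7% (log2 fold change -0.77, SE 0.097, adjusted p = 9.55e-06 from limma), and the WT libraries varied more among themselves than the GαqKO libraries. The summed level of the striated muscle markers given beside Cavin4 was lower in GαqKO as well (743.1 to 808.2 in WT, 18.5 to 27.2 in GαqKO). That sum was almost all Tnnt2 in WT, while Des was at 13 ± 4.71 in WT and 12.9 ± 2.92 in GαqKO. The level of Des is uncertain, as all of its exon bases lie inside spans of other listed genes. Any link of these markers to the Pacsin3 result was not tested. Pacsin3 to Pacsin2 was 0.189, 0.176 and 0.149 in WT and 0.0901, 0.0806 and 0.0795 in GαqKO. Pacsin1, the neuronal pacsin, was under the filter, at 6.8 ± 2.3 in WT and 4.8 ± 1.55 in GαqKO.

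Flot1 (ENSMUSG00000059714.14, chromosome 17, 36134075 to 36147515, plus strand) had normalized counts of 221.4, 217.6 and 199.5 in WT and 180.3, 168.8 and 170.2 in GαqKO. The mean fell by 18.7% (log2 fold change -0.3, SE 0.101, adjusted p = 0.0197 from limma), and the groups did not overlap. The call was lost without WT replicate 1 (adjusted p = 0.0601), WT replicate 2 (0.06), GαqKO replicate 2 (0.0508) or GαqKO replicate 3 (0.0507), and with edgeR (0.0763) and DESeq2 (0.247). Of its exon bases, 24.4% lie inside exons of Tubb5, a tubulin gene on the other strand with 33403 ± 1337 normalized counts in WT and 36375 ± 671 in GαqKO, and the strand setting of the counting is not given in the sources used here. Whether reads of Flot1 and Tubb5 were kept apart was not tested, so the low level of Flot1 is uncertain. Flot2 (ENSMUSG00000061981.15, chromosome 11, 77928723 to 77951263, plus strand), its partner in flotillin complexes, had 1723, 1650 and 1719 in WT and 1711, 1701 and 1643 in GαqKO, which overlap. Its log2 fold change was -0.01, with a 95% confidence interval from -0.11 to 0.09 (SE 0.045, adjusted p = 0.848 from limma). Flot2 to Flot1 was 7.78, 7.58 and 8.62 in WT and 9.49, 10.1 and 9.66 in GαqKO.

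On the log2 scale, GαqKO minus WT, Cavin3 to Cavin1 differed by 1.9, Ehd1 to Ehd2 by -0.85 and Ehd4 to Ehd2 by -1.47. Pacsin3 to Pacsin2 differed by -1.03 and Flot2 to Flot1 by 0.29. These 5 paralog ratios use the same counts as the gene results above, and the share of other gene pairs that separate was not computed. Each of the 5 ratios had a two-sided exact permutation p of 0.1, also after adjustment over the 5. That is the smallest that 3 against 3 libraries can give.

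In counts per kilobase of the union of exons, Cavin1 was highest, at 3119 ± 68.2 in WT, followed by Ehd1 (770 ± 22.9), Ehd4 (669 ± 41.1), Ehd2 (278 ± 14.1), Flot2 (257 ± 6.18) and Pacsin2 (240 ± 5.87). Pacsin3 (55.7 ± 6.44) and Cavin3 (54.8 ± 9.64) overlapped in WT, as did Cavin4 (36.8 ± 3.4) and Flot1 (34 ± 1.87), so neither pair has an order. In GαqKO the order was Cavin1 (2864), Ehd1 (705), Ehd2 (459), Ehd4 (400), Pacsin2 (288), Flot2 (255), Cavin3 (186), Cavin4 (67.3), Pacsin3 (32.5) and Flot1 (27.7), and no neighbours overlapped. Ehd2 thus passed Ehd4, Pacsin2 passed Flot2 and Cavin4 passed Pacsin3, while Cavin3, level with Pacsin3 in WT, was above it in GαqKO. The place of Flot1 depends on the length used: per kilobase of exon outside other genes' spans it was at 46.1 in WT, above the 36.8 of Cavin4, and at 37.5 in GαqKO, above the 32.5 of Pacsin3. By the length of the canonical transcript, a scale chosen after seeing the data, Cavin1 stayed first, Ehd2 still passed Ehd4 (334 against 791 in WT, 552 against 473 in GαqKO), Pacsin2 still passed Flot2 (615 against 643 in WT, 738 against 639 in GαqKO) and Cavin3 was below Pacsin3 in WT (65.6 against 209) and above it in GαqKO (223 against 122), but Cavin4 stayed below Pacsin3 in both groups (36.8 against 209 and 67.3 against 122) and Flot1 was above Cavin4 in both (114 against 36.8 and 92.5 against 67.3).

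The caveolin genes Cav1 and Cav2 and the cavin gene Cavin2, which belong to this coat, were listed at 0 in all 6 libraries. Cav1 (chromosome 6, 17306140 to 17341451) and Cav2 (chromosome 6, 17281026 to 17289877) lie wholly inside the span of Gm15581, a long noncoding RNA on the other strand, and Cavin2 (chromosome 1, 51328266 to 51345710) inside that of 9330175M20Rik. None of the exon bases of Cav1, 2.1% of those of Cav2 and 2.3% of those of Cavin2 lie inside exons of another listed gene. Among protein-coding genes placed in that way, 655 of 819 (80%) were at 0 in every library, against 2901 of 11540 (25.1%) with no overlap. Their zeros are therefore not read as absence of the transcript, and the caveolins are not analysed here. Cav3, the muscle caveolin, was also at 0. The spanning RNAs themselves were low: Gm15581 was at 16.6 ± 5.31 in WT and 42 ± 1.96 in GαqKO (log2 fold change 1.34, adjusted p = 0.000979 from limma) and 9330175M20Rik at 1 ± 1.04 and 19.7 ± 5.13.

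**Figure D4:**
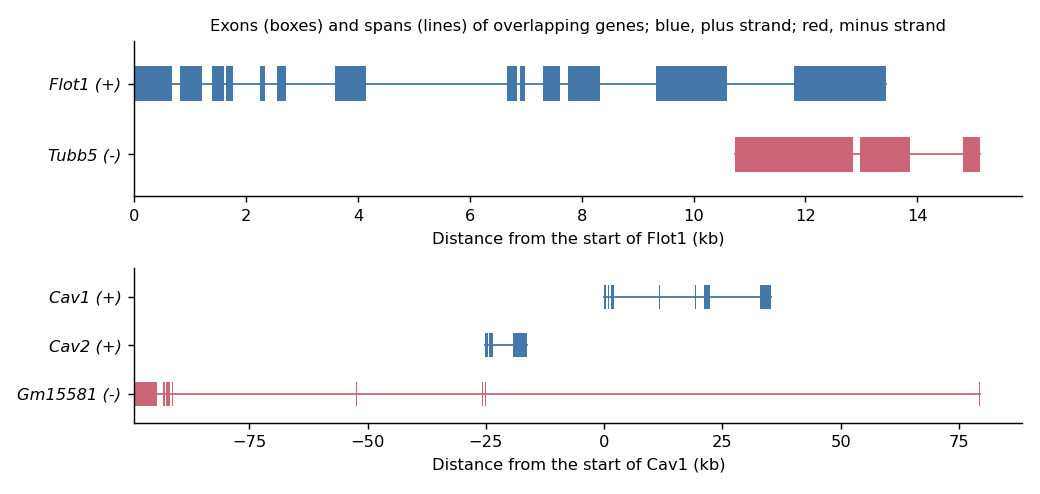
Exons (boxes) and spans (lines) of Flot1 with Tubb5, and of Cav1, Cav2 and Gm15581, by distance from the start of Flot1 or Cav1 in kilobases, blue on the plus and red on the minus strand. Tubb5 exons lie over the last exons of Flot1, whereas Cav1 lies between exons of Gm15581, as does Cav2 except for 2.1% of its exon bases.

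Of 16 genes of other caveola proteins and of EHD and pacsin partners, 11 were tested, 4 higher and 5 lower (36.4% and 45.5%, beside 31.8% and 34.1% of all genes), with a median log2 fold change of -0.1. Src, the kinase that phosphorylates caveolin-1, was higher at 2077 ± 18.5 and 3230 ± 93.2 normalized counts (log2 fold change 0.64, adjusted p = 1.25e-08 from limma). The fission GTPase gene Dnm1 (0.21) and Rbsn, an EHD partner in endosomes (0.18), rose less. The other dynamin genes went both ways. Dnm2 fell by 0.22 on the log2 scale, and the low Dnm3 (19.8 ± 6.45 in WT, 40.8 ± 14 in GαqKO) rose by 1. Ror1, a receptor that binds cavin-1, was lower, at 370.7, 385.7 and 385.8 in WT and 26.3, 49.7 and 22.2 in GαqKO (log2 fold change -3.59, adjusted p = 9.16e-09 from limma). Snap29, a SNARE that binds EHD1, fell by 0.85 and Bin1, a membrane-tubulating partner of dynamin, by 0.3 on the log2 scale.

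Among 13 relatives and partners of the flotillins, 11 were tested, 6 higher and 3 lower (54.5% and 27.3%, beside 31.8% and 34.1% of all genes), with a median log2 fold change of 0.26. Stom, which encodes stomatin, a raft scaffold protein with the same fold as flotillins, was at 596.8 ± 10.3 in WT and 1139 ± 24.5 in GαqKO (0.93, adjusted p = 2.55e-09 from limma). Erlin1 (0.67) and Stoml1 (0.56) rose as well, and Stoml2 fell by 0.35. Fyn, a raft-anchored kinase, was lower (343 ± 33.8 to 95.2 ± 14.5, log2 fold change -1.84), as was Sorbs2, a flotillin-binding adaptor (332.8 ± 59.8 to 5.4 ± 0.73, log2 fold change -5.69), of whose exon bases 68.7% lie inside spans of other listed genes.

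Of 25 clathrin coat genes, 20 were tested, 4 higher and 13 lower (20% and 65%, beside 31.8% and 34.1% of all genes), with a median log2 fold change of -0.35. Hip1, a clathrin adaptor linked to actin, was at 2691 ± 126 in WT and 1551 ± 28.7 in GαqKO (-0.79, adjusted p = 4.23e-09 from limma). Its relative Hip1r fell by the same 0.79, and the clathrin light chain gene Cltb fell by 0.93, although all of its exon bases lie inside spans of other listed genes. The membrane-bending epsins Epn2 (0.56) and Epn1 (0.53) and the adaptor Dab2 (0.19) were higher. Epithelial markers moved too: their summed level was 508.9 to 528.4 in WT and 10.1 to 24.3 in GαqKO, with 2 of 6 genes (Cdh1 and Krt14) over 10 in every WT library, none in every GαqKO library, and Krt5 near 0. Endothelial markers (14.6 to 26.1 and 17.8 to 39.3), leukocyte markers (89.8 to 109.8 and 60.1 to 90.2, mostly Cd68) and adipocyte markers (2.9 to 5.2 and 24.2 to 30, mostly Fabp4) were low in both. Any link of these markers to the results was not tested.

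**Figure D5:**
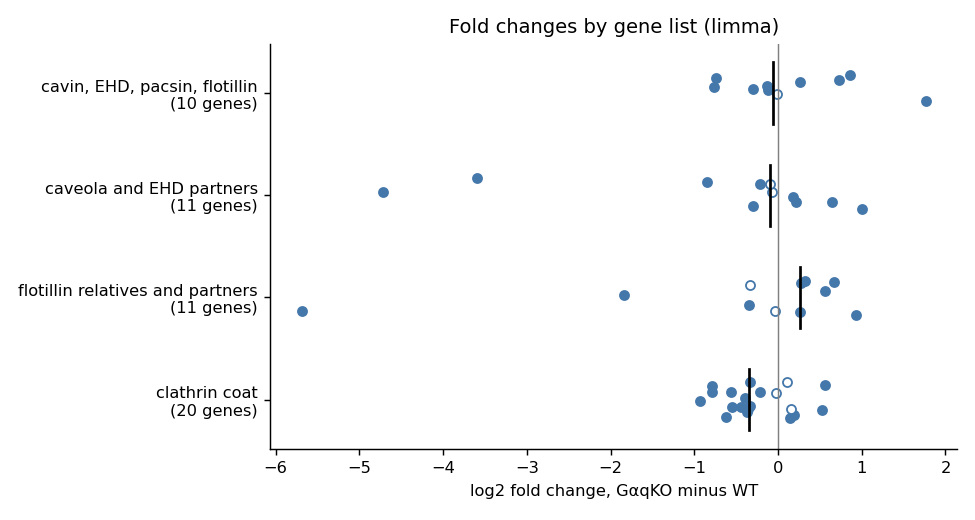
log2 fold changes (x axis) of the genes tested in each list, with filled points for an adjusted p under 0.05 and the list's median as a bar. The clathrin coat genes lie mostly below 0, with a median of -0.35, and the 10 caveola and raft coat genes lie on both sides of it.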

How the data were processed

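RNA from MEFs was sequenced as poly-A libraries, in 3 WT and 3 GαqKO libraries that the study describes as biological replicates. The authors counted reads per gene with featureCounts on GRCm39 and GENCODE M32 and deposited 1 table of normalized counts, that is a signal equal to counts divided by a factor per library. The main test was limma (3.58.1) with a trend, on log2(normalized count + 1), for genes that reached 10 normalized counts in 3 or more libraries (14096 genes), adjusted by Benjamini-Hochberg. In 5 libraries 100% of the values were whole reads after division by a step (tolerance 0.1 read); edgeR (4.0.16) and DESeq2 (1.42.0) were run on those reads, and the third GαqKO library entered no count test. Positions, exons and overlaps came from GENCODE M39 on the same build (R 4.3.3, Python 3.11.15). Identifiers of 643 genes had no match. Fits were tested on simulated data.

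Genes named from the lists were, beside the 10 genes, the caveolins and Cavin2, up to 3 in each direction with the largest change among those called with a mean of at least 100. Dnm2 and Dnm3 were named beside Dnm1 after their values were seen. The members and lists were chosen with earlier results of these data known. A filter of at least 10 in at least 2 libraries for fits without 1 library and for edgeR, and the canonical transcript length, were added after first results were seen. Alternatives covered the scaling, pseudocount, filter, prior spread, replicate block, count tests and each library left out.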

Additional observations from a re-analysis of the deposited data

How the results depend on the processing

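The 4 genes called higher stayed 4 under each of the 22 alternatives, 7 of them added after the data were seen. The 5 called lower became 3 with no trend in the prior spread, 2 with edgeR (also with the filter at 2 libraries), 3 with DESeq2, and 3 (without WT replicate 1) to 5 on leaving out single libraries, under either filter. Cavin3, Cavin4, Ehd2, Ehd4, Pacsin2 and Pacsin3 kept their calls under all 22; Cavin1 lost its call under 3, Ehd1 under 8 and Flot1 under 11. The log2 fold change of Flot2 turned positive with edgeR (0.04, and 0.02 with the filter at 2 libraries), DESeq2 (0.01), and without WT replicate 1 (0) or GαqKO replicate 3 (0.01), and ran from -0.03 to 0.01 over all libraries left out singly. The cause was not tested. The first run of the fits without 1 library used the planned filter of 3 libraries, and relaxing it to 2 changed no count of the 10 genes. Over all genes, edgeR called 4052 higher and 4305 lower of 13597, and DESeq2 3540 and 3871 of 17672. Past a log2 fold change of 1, the 1432 higher and 1486 lower genes became 831 and 765 when 10 was required in every library. With 2 libraries left in a group, the filter of 3 libraries removes genes that reach 10 in that group alone. Under the filter of 3 libraries, the lower genes became 942 without WT replicate 3, 973 without WT replicate 2 and 969 without WT replicate 1. The higher genes became 1023, 1029 and 1012 without GαqKO replicate 1, 2 and 3. With the filter at 2 libraries, the lower genes were 1492 to 1540 without a WT replicate. The higher genes were 1426 to 1438 without a GαqKO replicate. The replicate numbers do not pair the libraries (correlations of same-numbered deviations -0.0453, -0.148 and -0.0638): with a replicate block 4 genes were higher and 5 lower. Depth limits the lowest genes most: Cavin4, Flot1 and Cavin3 in WT had the fewest counts of the 10.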
